A study of Mus musculus with 24 samples.

Results

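Expression of 10 genes for cell surface ligands of natural killer (NK) and T cells was compared in mouse ovarian cancer cells treated with cisplatin, with AU15330, a degrader of SMARCA4 and SMARCA2, or with both. The genes were chosen by symbol: the checkpoint ligands Cd274, Cd276 and Cd47, the DNAM-1 ligands Pvr and Nectin2, the adhesion molecules Icam1 and Vcam1, and the NKG2D ligands Raet1d, Raet1e and Ulbp1. All 10 were present among the 25229 genes of the count table and among the 12941 genes that passed the filter on low counts and were tested. For Raet1d, 6 of 6 libraries of the combination, 1 of 6 of cisplatin, and 0 of the DMSO and AU15330 libraries reached the filter's minimum of 0.457 CPM (read counts scaled to library size), so it entered the test through the group where it was highest.

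The cells were ID8 P53 KO, a line derived from mouse ovarian surface epithelium in which the P53 gene is knocked out, and all groups share that genotype. For 6 days they received DMSO as the vehicle, 2.5 uM AU15330, 750 nM cisplatin, or both drugs at these concentrations (the combination), and the study's methods give another cisplatin concentration for these cells. Each treatment had 6 replicates, and polyadenylated RNA was sequenced. The labels do not say that replicates were separate cultures, so the p-values measure only the spread between these libraries.

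As background, NK cells weigh activating signals against inhibitory ones when they meet a target cell. NKG2D on NK and T cells recognizes RAE-1, H60 and MULT1 proteins on stressed cells, and DNAM-1 recognizes CD155 and CD112, for which the inhibitory receptor TIGIT competes. PD-L1 restrains T and NK cells through PD-1, CD47 restrains phagocytes through SIRP-alpha, and the integrins of leukocytes hold on to ICAM-1 and VCAM-1.

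The libraries held 17592588 to 25260009 counted reads, and 3 counts corresponded to 0.120 to 0.186 CPM, a floor that covers counting error only. Trp53 mRNA was detected at 18.7 to 42.9 CPM in the 24 libraries, which without a wild-type library does not test the genotype. AU15330 acts on the SMARCA4 and SMARCA2 proteins, so the mRNA of its targets does not check the treatment labels. Smarca4 was at 218 to 265 CPM with DMSO and 377 to 402 CPM with AU15330, and Smarca2 at 370 to 481 and 246 to 302 CPM. Of 7 markers of ovarian surface epithelium, Krt8, Krt18, Wt1 and Msln were present in every library, and Epcam never exceeded 2 counts. Krt19 had a median of 1611 CPM with DMSO and 5.72 CPM with AU15330. Krt7 was at 0.434 to 2.42 CPM with DMSO and 4.34 to 5.17 CPM with cisplatin. It did not exceed 2 counts in an AU15330 library or 5 in a combination library. Among 12 leukocyte markers, Ncr1 and Cd226 were at 0 in all libraries, Klrk1 did not exceed 1 count in any library and 7 others, Ptprc among them, did not exceed 8 counts. Cd79a, a B cell gene, reached 2 counts with DMSO, 17 with cisplatin and 10 in each group with AU15330. The leukocyte markers summed to 0.176 to 3.43 CPM per library, with Tigit at 0.930 to 3.14 CPM with DMSO and 1.08 to 2.71 CPM with cisplatin. In the groups with AU15330 Tigit was at 0.335 CPM or less and the sum at 1.102 CPM or less. In bulk RNA of this kind, fewer cells that express a gene and less RNA of it per cell cannot be told apart.

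The first question was what each drug did to the checkpoint ligands. Cd274, which encodes PD-L1, rose with either drug to about the same level and was no higher with both. Below, the levels of a gene are its lowest, median and highest CPM among the 6 libraries of a treatment. Cd274 lay at 1.59, 2.56 and 4.00 CPM with DMSO and at 17.1, 18.7 and 20.3 CPM with AU15330. It lay at 11.4, 16.9 and 21.02 CPM with cisplatin and at 13.9, 18.8 and 20.3 CPM with the combination. Every treated library was above every DMSO library, and the 3 treated groups overlapped. Compared with DMSO, Cd274 rose 6.70-fold with AU15330 (log2 fold change 2.74 ± 0.18 SE, n = 6 per group, edgeR adjusted p = 1.97e-13) and 5.91-fold with cisplatin (2.56 ± 0.18, edgeR adjusted p = 4.58e-12). The combination differed from cisplatin by a log2 fold change of 0.15 (95% interval -0.17 to 0.47, edgeR adjusted p = 0.397) and from AU15330 by -0.03 (-0.35 to 0.28, edgeR adjusted p = 0.887). The effect of AU15330 was therefore smaller in the presence of cisplatin, with an interaction of -2.60 ± 0.23 on the log2 scale (edgeR adjusted p = 3.55e-09).

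Cd276 encodes B7-H3, a B7 family protein found on many tumors and known for restraining T cells. Its level was 66.6, 75.7 and 98.9 CPM with DMSO and 58.8, 66.5 and 72.3 CPM with cisplatin. With AU15330 it was 15.3, 17.9 and 25.6 CPM, and with the combination 22.6, 25.2 and 29.6 CPM. All libraries that received AU15330 were below all that did not. AU15330 lowered Cd276 4.22-fold without cisplatin (log2 fold change -2.08 ± 0.12, edgeR adjusted p = 3.39e-14) and 2.61-fold with it (-1.38 ± 0.12, edgeR adjusted p = 1.01e-10). The difference between these effects passed the test (interaction 0.69 ± 0.17, edgeR adjusted p = 0.00226). Cisplatin alone gave -0.27 ± 0.12 (edgeR adjusted p = 0.0553), and this value passed the threshold when replicate 4 (-0.33, adjusted p = 0.0378) or replicate 6 (-0.32, adjusted p = 0.0406) was left out of every group. It also passed with the replicate number as a block (-0.25, adjusted p = 0.023) and with no filter on low counts (-0.29, adjusted p = 0.0432).

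The third checkpoint gene, Cd47, encodes a widely expressed "do not eat me" signal for phagocytes. Its libraries were at 164, 199 and 239 CPM with DMSO and at 199, 204 and 225 CPM with cisplatin. They were at 353, 384 and 444 CPM with AU15330 and at 280, 301 and 335 CPM with the combination. The AU15330 and combination groups did not overlap with each other or with the groups without AU15330. Cd47 rose 1.93-fold with AU15330 over DMSO (0.95 ± 0.08, edgeR adjusted p = 4.57e-11) and 1.46-fold with the combination over cisplatin (0.55 ± 0.08, edgeR adjusted p = 8.42e-07). The combination remained below AU15330 alone (-0.35 ± 0.08, edgeR adjusted p = 0.000779), and the interaction was -0.40 ± 0.11 (edgeR adjusted p = 0.00763). For cisplatin against DMSO the log2 fold change was 0.04 (95% interval -0.12 to 0.21, edgeR adjusted p = 0.673).

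**Figure D1:**
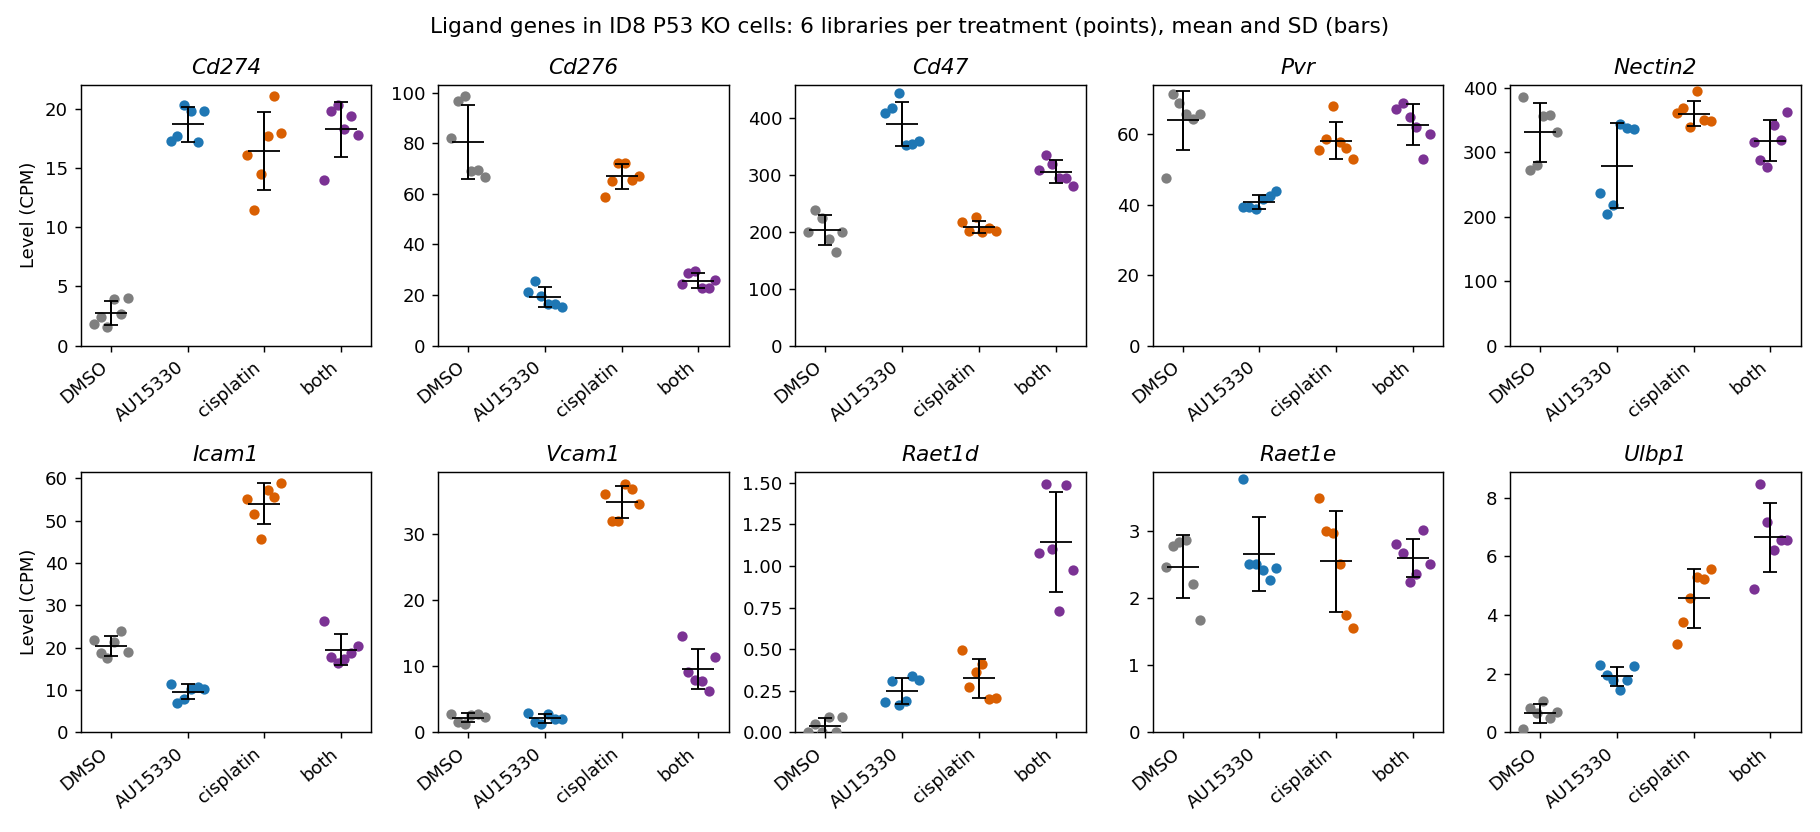
Level in CPM (y axis, from 0, one scale per gene) of the 10 ligand genes in each library (points) under DMSO, AU15330, cisplatin or both, with the mean (line) and SD (bars) of 6 libraries. Vcam1 and Icam1 were highest with cisplatin, Raet1d and Ulbp1 with both drugs, and Raet1e lay at similar levels in the 4 groups.

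The next pair of genes encodes the ligands that DNAM-1 and TIGIT share. Pvr, which encodes CD155, fell with AU15330 alone, and with the combination it was near its DMSO level. It was measured at 47.6, 65.7 and 71.4 CPM with DMSO, and at 38.7, 40.5 and 43.8 CPM with AU15330. With cisplatin it was at 53.1, 57.0 and 68.0 CPM, and with the combination at 52.95, 63.5 and 69.0 CPM. The AU15330 libraries were below the libraries of each other group, which overlapped among themselves. Pvr was 1.57-fold lower with AU15330 than with DMSO (-0.65 ± 0.08, edgeR adjusted p = 1.13e-07) and 1.54-fold higher with the combination than with AU15330 (0.62 ± 0.08, edgeR adjusted p = 1.41e-06). The combination against DMSO gave -0.03 (95% interval -0.20 to 0.14, edgeR adjusted p = 0.761), and the interaction was 0.75 ± 0.12 (edgeR adjusted p = 1.96e-05). DMSO replicate 1, at 47.6 CPM, stood apart from the other 5 at 64.3 to 71.4 CPM. Without replicate 1 of each group, cisplatin against DMSO went from -0.14 (edgeR adjusted p = 0.169) to -0.21 (adjusted p = 0.0184), and the combination against DMSO to -0.18 (adjusted p = 0.0323).

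Nectin2, which encodes CD112, had the highest level per length of the 10 genes in each treatment, and its groups differed little. It spanned 273, 344 and 387 CPM with DMSO, and 205, 286 and 345 CPM with AU15330. It spanned 339, 356 and 395 CPM with cisplatin and 278, 318 and 363 CPM with the combination. Every pair of groups overlapped. Of the 6 pairs, only AU15330 against cisplatin was called (1.29-fold lower, -0.37 ± 0.12, edgeR adjusted p = 0.00748). AU15330 against DMSO gave -0.24 ± 0.12 (edgeR adjusted p = 0.0664). Within the AU15330 group the libraries formed sets, with replicates 1 to 3 at 205 to 237 CPM and replicates 4 to 6 at 336 to 345 CPM, a grouping seen only after the values were known. With the combination these sets were at 278 to 315 and 320 to 363 CPM, and with DMSO and cisplatin they overlapped. The split was not particular to Nectin2. Replicates 1 to 3 and 4 to 6 did not overlap for 2 of the 10 genes with DMSO (21.8% of all tested genes), 5 with AU15330 (32.6%), 4 with cisplatin (30.9%) and 3 with the combination (19%). Cd276, for example, was at 82.1 to 98.9 and 66.6 to 69.3 CPM with DMSO and at 19.6 to 25.6 and 15.3 to 16.3 CPM with AU15330. Each treatment holds both sets, and the labels name no batch. With the replicate number as a block, AU15330 against DMSO was called for Nectin2 (-0.26, adjusted p = 0.0136). Without replicate 6 of each group it was called too (-0.30, adjusted p = 0.0473). The combination against cisplatin was called when only these groups were fitted (-0.21, adjusted p = 0.0147).

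Icam1 encodes ICAM-1, which binds the integrin LFA-1 on NK and T cells and is a textbook target of NF-kB. It is shown with the 250 bases upstream of its RefSeq start (chr9:21015690-21015939 of GRCm38, plus strand), which overlap no exon or intron of the genes listed here. The letters GGAANTTCC, a palindrome of the kind that NF-kB dimers bind, are in capitals. They lie 153 to 145 bases before the start, and this motif, searched on both strands after the windows had been seen, was present in 0.813% of 32851 mouse promoter windows of that length.
Icam1: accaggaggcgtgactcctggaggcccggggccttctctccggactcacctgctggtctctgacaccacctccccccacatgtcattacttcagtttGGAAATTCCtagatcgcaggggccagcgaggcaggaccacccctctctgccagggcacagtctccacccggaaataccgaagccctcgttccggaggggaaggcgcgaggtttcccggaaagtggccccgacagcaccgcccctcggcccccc
The 3 other motifs searched, also on both strands, were an NF-kB-like and an ISRE-like motif of 10 letters (in 4.11% and 2.98% of all windows) and the AP-1-like TGANTCA (6.75%). Windows were available for 8 of the 10 genes, and the only match to these was the NF-kB-like one in Nectin2, 152 to 143 bases before its start. A match here is a match of letters and not a measured site.

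Both adhesion genes rose with cisplatin, and in both the level with the combination was lower than with cisplatin alone. Icam1 was at 17.7, 20.1 and 23.97 CPM with DMSO and at 7.05, 10.2 and 11.5 CPM with AU15330. It reached 45.6, 55.4 and 59.0 CPM with cisplatin and 16.3, 18.3 and 26.4 CPM with the combination. The cisplatin libraries were all above, and the AU15330 libraries all below, those of the other groups, and DMSO and the combination overlapped. Cisplatin raised Icam1 2.65-fold over DMSO (1.41 ± 0.12, edgeR adjusted p = 1.91e-10), and AU15330 lowered it 2.13-fold without cisplatin (-1.09 ± 0.12, edgeR adjusted p = 1e-08) and 2.76-fold with it (-1.47 ± 0.12, edgeR adjusted p = 1.95e-11). The combination against DMSO gave -0.06 (95% interval -0.30 to 0.18, edgeR adjusted p = 0.649). The interaction of -0.38 ± 0.17 did not pass the threshold (edgeR adjusted p = 0.0803), and it did without replicate 1 (-0.46, adjusted p = 0.0266), with libraries scaled to total counts (-0.44, adjusted p = 0.046), in DESeq2 (-0.41, adjusted p = 0.049) and in the fit blocked by replicate number (-0.38, adjusted p = 0.0145).

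Vcam1 encodes VCAM-1, the ligand of the integrin VLA-4, and showed the largest response to cisplatin of the 10 genes by fitted fold change. Its level was 1.26, 2.48 and 2.80 CPM with DMSO and 1.32, 2.06 and 2.93 CPM with AU15330. Cisplatin libraries were at 31.9, 35.3 and 37.6 CPM, and those of the combination at 6.28, 8.54 and 14.6 CPM. The cisplatin and combination groups were apart from each other and from the other groups, while DMSO and AU15330 overlapped. Vcam1 rose 15.7-fold with cisplatin (3.98 ± 0.21, edgeR adjusted p = 2.63e-14) and 4.31-fold with the combination over DMSO (2.11 ± 0.21, edgeR adjusted p = 1.06e-09). AU15330 added to cisplatin lowered it 3.65-fold (-1.87 ± 0.18, edgeR adjusted p = 8.53e-10). Without cisplatin, AU15330 gave -0.07 (95% interval -0.55 to 0.42, edgeR adjusted p = 0.80), a sign that turned to 0.06 when libraries were scaled to total counts. The interaction was -1.80 ± 0.29 (edgeR adjusted p = 3.69e-05).

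Of the NKG2D ligands, Ulbp1 and Raet1d were highest with the combination, and Raet1e stayed level. Ulbp1 encodes MULT1, a high-affinity ligand of mouse NKG2D. Its libraries were at 0.124, 0.687 and 1.08 CPM with DMSO, 1.43, 1.87 and 2.30 CPM with AU15330, 3.00, 4.90 and 5.56 CPM with cisplatin, and 4.89, 6.56 and 8.47 CPM with the combination. In counts, DMSO libraries held 2 to 24 reads and combination libraries 113 to 193. The groups stood in this order without overlap, except that cisplatin and the combination overlapped. Ulbp1 rose 6.82-fold with cisplatin (2.77 ± 0.24, edgeR adjusted p = 5.36e-10), 2.85-fold with AU15330 (1.51 ± 0.26, edgeR adjusted p = 8.62e-06) and 9.90-fold with the combination over DMSO (3.31 ± 0.24, edgeR adjusted p = 2.7e-12). The combination exceeded cisplatin 1.45-fold (0.54 ± 0.19, edgeR adjusted p = 0.0171). This last call was lost without replicate 2 (0.41, adjusted p = 0.11) or replicate 3 (0.50, adjusted p = 0.062). The interaction of -0.97 ± 0.32 (edgeR adjusted p = 0.0213) missed the threshold without replicate 5 (-0.88, adjusted p = 0.0904) or replicate 6 (-0.88, adjusted p = 0.0867).

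Raet1d and Raet1e encode RAE-1 delta and RAE-1 epsilon, and their counts have to be read together. In the GENCODE M21 annotation of GRCm38, Raet1d spans chr10:22360552-22374139 and Raet1e chr10:22158569-22374139, both on the plus strand, because 1 annotated Raet1e transcript ends in the last exon of Raet1d. Of all stretches of 70 bases, the read length, 46.1% of those in Raet1d transcripts also occur in another gene (Raet1e), as do 36.1% of those in Raet1e transcripts (Raet1d and H60b). How the authors' counting treated such reads is not given in the sources used here, so the split of reads between both genes is uncertain. Their upstream regions are near copies as well, which is why both are printed. The 246 aligned bases just upstream of the RefSeq start of Raet1d (chr10:22361646-22361891, GRCm38, plus strand) and of the second RefSeq start of Raet1e (chr10:22173251-22173496), which lie in introns in GENCODE, were 98.8% identical. They differed by C124T, G176C and A191C, with the base of Raet1d first and positions counted from 1 at the 5′ end of the printed stretch. Capitals mark these 3 positions.
Raet1d: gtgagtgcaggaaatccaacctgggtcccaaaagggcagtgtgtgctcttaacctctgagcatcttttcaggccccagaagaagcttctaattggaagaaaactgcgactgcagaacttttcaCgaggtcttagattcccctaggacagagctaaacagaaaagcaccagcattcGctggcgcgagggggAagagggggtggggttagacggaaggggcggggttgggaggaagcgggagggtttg
Raet1e: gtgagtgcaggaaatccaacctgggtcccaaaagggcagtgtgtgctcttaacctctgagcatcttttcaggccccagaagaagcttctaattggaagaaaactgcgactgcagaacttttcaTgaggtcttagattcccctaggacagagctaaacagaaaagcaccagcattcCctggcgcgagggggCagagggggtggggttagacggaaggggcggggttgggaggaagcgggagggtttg

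Raet1d was close to the counting floor with DMSO, had more reads with each drug and the most with both. It had 0 to 2 reads per library with DMSO (5 in all), 4 to 7 with AU15330 (32 in all), 5 to 11 with cisplatin (45 in all) and 16 to 34 with the combination (150 in all). This corresponded to 0.00, 0.024 and 0.093 CPM with DMSO and 0.165, 0.250 and 0.340 CPM with AU15330. It was 0.200, 0.317 and 0.493 CPM with cisplatin and 0.727, 1.09 and 1.49 CPM with the combination. The DMSO group lay below and the combination above all others, and AU15330 and cisplatin overlapped. Because fitted fold changes over so few DMSO reads depend on the prior count, ratios of the summed reads are given with exact binomial 95% intervals, which cover counting error only. The ratio to DMSO was 7.71 (3.07 to 24.9) for cisplatin, 5.90 (2.28 to 19.4) for AU15330 and 27.4 (11.5 to 85.6) for the combination. Leaving out 1 replicate number at a time, these ratios ranged from 5.99 to 11.3, from 4.63 to 8.35 and from 21.9 to 39.9. The combination exceeded cisplatin 3.56-fold (2.53 to 5.08) and AU15330 4.65-fold (3.15 to 7.03). Because Raet1d passed the filter only through the combination, its p-values are given from the fit with no filter, over 20428 genes. There edgeR called these 5 differences (adjusted p between 4.15e-10 for the combination against DMSO and 0.00041 for AU15330 against DMSO) and not AU15330 against cisplatin (adjusted p = 0.423) or the interaction (adjusted p = 0.541).

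Raet1e did not differ between any groups by the test. It was at 1.67, 2.63 and 2.87 CPM with DMSO and 2.28, 2.48 and 3.78 CPM with AU15330. With cisplatin it was at 1.57, 2.75 and 3.49 CPM, and with the combination at 2.25, 2.59 and 3.02 CPM. All groups overlapped. The combination against DMSO gave 0.07 (95% interval -0.31 to 0.46, edgeR adjusted p = 0.731), and the adjusted p-values of the other pairs lay between 0.618 and 0.91. The summed CPM of Raet1d and Raet1e does not depend on the split between them if each shared read was counted once, which is not known. Stretches that Raet1e shares with H60b lie outside this sum. On it the combination was at 3.75 ± 0.53 and DMSO at 2.51 ± 0.46 (SD, n = 6). The difference of 1.24 CPM had p = 0.00216 in a two-sided exact permutation test, the smallest this design can give, and 0.013 after adjustment over 6 pairs. None of the other 5 pairs passed on this sum (adjusted p between 0.0974 for the combination against AU15330 and 0.926). AU15330 replicate 1, at 3.78 CPM of Raet1e, stood apart from the other 5 at 2.28 to 2.51 CPM.

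**Figure D2:**
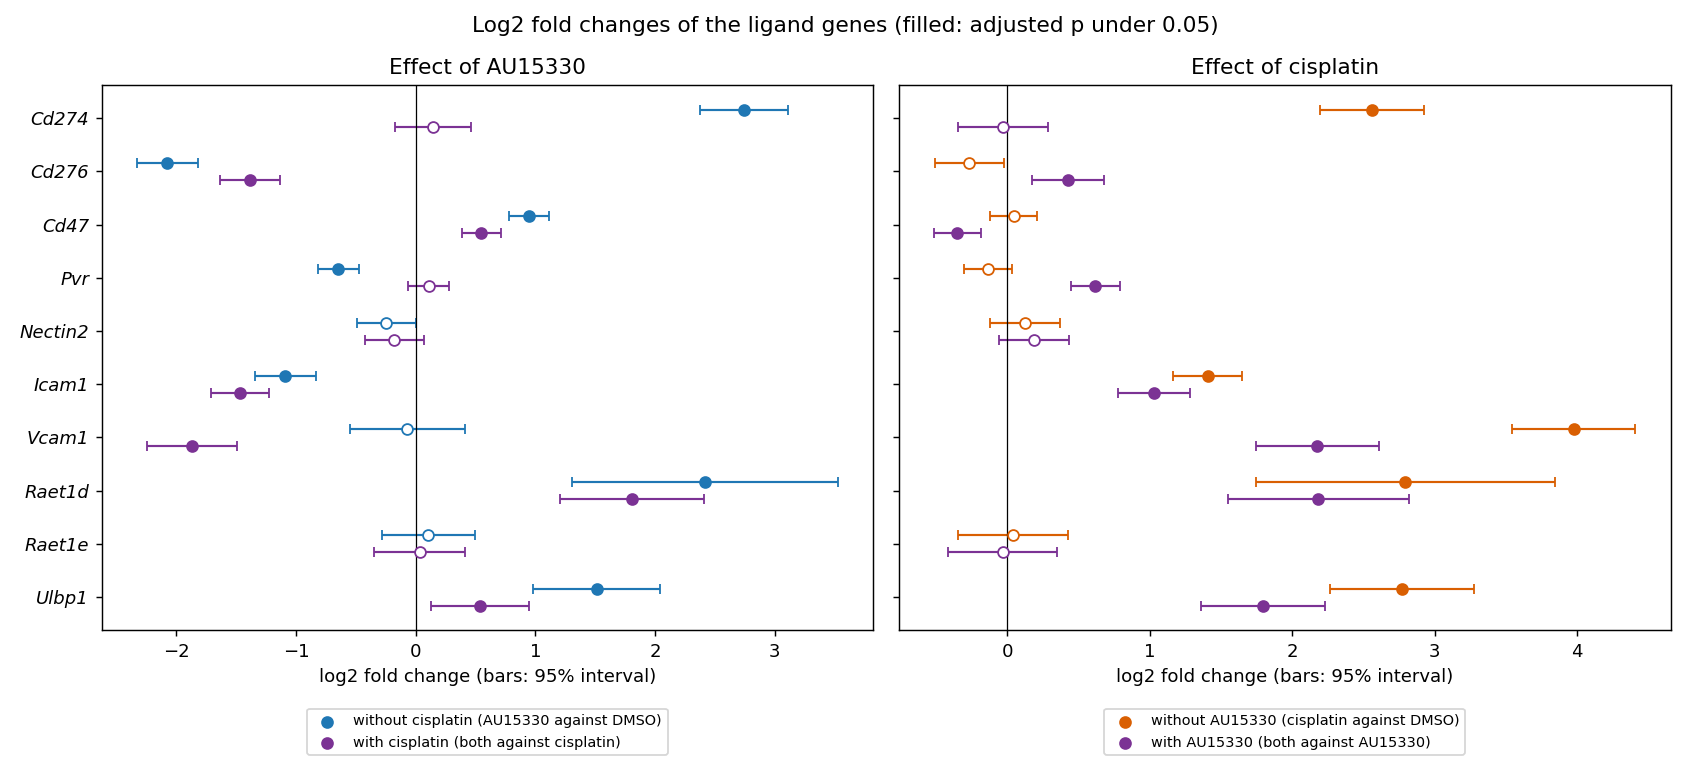
Log2 fold change (x axis) of each gene with its 95% interval (bars), for AU15330 without and with cisplatin (left) and for cisplatin without and with AU15330 (right), 6 libraries per group, filled points having an adjusted p under 0.05 in edgeR. Cd274 passed the test for either drug alone and for neither in the presence of the other, and Vcam1 fell with AU15330 when cisplatin was present (-1.87) and not without it (-0.07). The fitted values of Raet1d depend on the prior count.

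The calls of the 10 genes are set beside the share of all tested genes called in the same comparison. With cisplatin against DMSO, 5 rose and 0 fell, 5 of 10 against 51.7% of all tested genes (26.0% higher, 25.7% lower). With AU15330 against DMSO, 4 rose and 3 fell, where 73.4% of all genes were called (36.2% higher, 37.2% lower). With the combination against cisplatin, 3 rose and 3 fell, where 68.1% were called (35.4% higher, 32.7% lower). The combination against AU15330 gave 6 higher and 1 lower beside 41.7% called (22.2% higher, 19.5% lower). The combination against DMSO gave 5 higher and 1 lower beside 73.3% (36.8% higher, 36.5% lower). AU15330 against cisplatin gave 1 higher and 6 lower beside 73.1% (35.8% higher, 37.3% lower). The interaction was called in 6 of 10 genes, 2 higher and 4 lower, where 33.7% of all genes were called (17.9% higher, 15.8% lower). With libraries scaled to total counts, 3977 genes were higher and 2529 lower for cisplatin against DMSO and 1791 and 2506 for the interaction. For AU15330 against DMSO the same scaling gave 5618 higher and 3973 lower in place of 4681 and 4816. With a fold change above 1.5 required, 1422 genes were higher and 367 lower for cisplatin against DMSO. These comparisons share groups and are not independent of one another, and Raet1d had to differ to pass the filter, although its calls were the same without the filter. Of the other 9 genes, 4 rose and 0 fell with cisplatin against DMSO, and 3 rose and 3 fell with AU15330 against DMSO. For the combination, 2 were higher and 3 lower than with cisplatin, 5 and 1 than with AU15330, and 4 and 1 than with DMSO. AU15330 against cisplatin gave 1 higher and 6 lower, and the interaction 2 and 4.

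The median log2 fold change of the 10 genes was 0.76 with cisplatin against DMSO, where the median of all tested genes was -0.004. It was 0.02 with AU15330 against DMSO (all genes -0.003), 0.07 with the combination against cisplatin (0.039) and 0.52 with the combination against AU15330 (0.006). It was 0.33 with the combination against DMSO (-0.001), -0.44 with AU15330 against cisplatin (-0.01) and -0.39 for the interaction (0.006). Without Raet1d the median of the other 9 genes was 0.12 with cisplatin against DMSO and -0.07 with AU15330 against DMSO. For the combination it was 0.03 against cisplatin, 0.43 against AU15330 and 0.07 against DMSO. AU15330 against cisplatin gave -0.51 for these 9 genes, and the interaction -0.38. The CPM ranges of the groups were apart for 5 of 10 genes with cisplatin against DMSO (24% of all genes), 7 with AU15330 against DMSO (49.9%), 5 with the combination against cisplatin (50.2%) and 6 with the combination against AU15330 (29.6%). They were apart for 6 with the combination against DMSO (49.5%) and 6 with AU15330 against cisplatin (57.4%). Raet1d, which passed the filter only through the combination, is 1 of the genes counted in every pair except AU15330 against cisplatin.

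Per kb of exon, the 10 genes covered a wide range in DMSO. Nectin2 was at 94.7 CPM per kb, Cd47 at 32.2, Cd276 at 22.01 and Pvr at 10.4 CPM per kb. Icam1 was at 4.68, Raet1e at 1.15, Cd274 at 0.760, Vcam1 at 0.250, Ulbp1 at 0.0963 and Raet1d at 0.0268 CPM per kb. The NKG2D ligands thus stayed at or below 1.23 CPM per kb in the means of all 4 groups. Ulbp1 reached 0.988 CPM per kb with the combination, where Nectin2 was at 91.0.

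**Figure D3:**
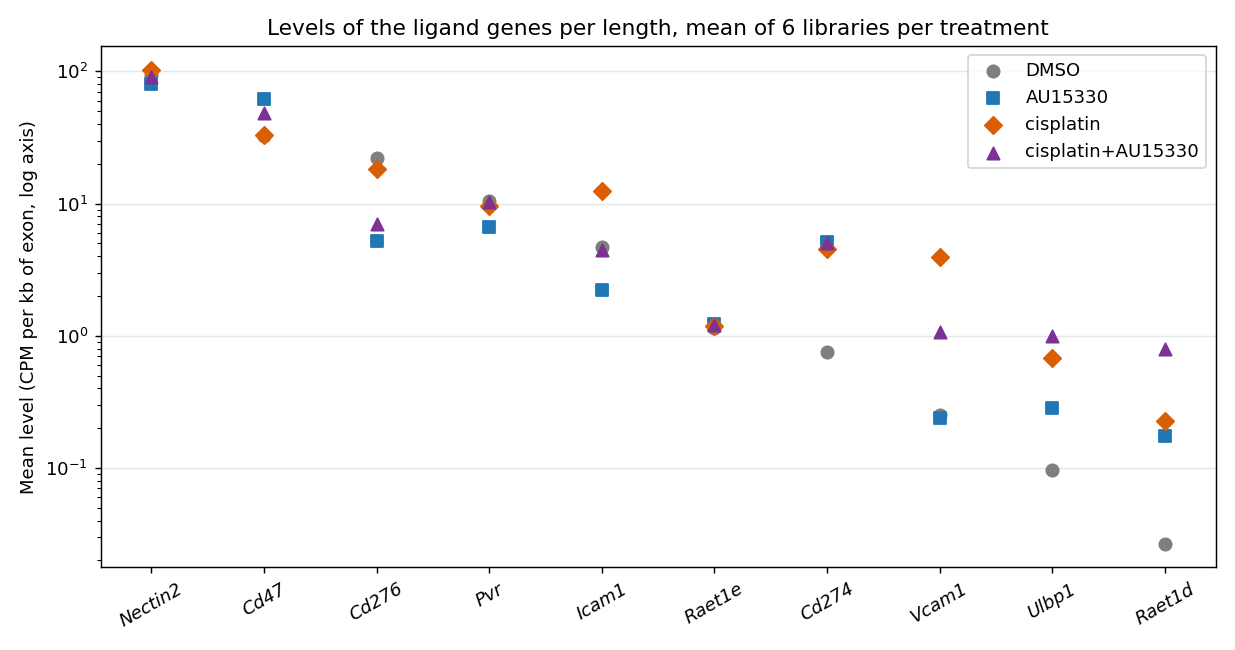
Mean level in CPM per kb of exon (y axis, log scale) of the 10 ligand genes (x axis, ordered by their level with DMSO) for each treatment, 6 libraries per mean. Nectin2 and Cd47 were the most abundant in each treatment, and the spread between treatments was widest for Raet1d and Vcam1.

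In the order of levels, some neighbouring groups did not differ. For Cd274 the order was DMSO, cisplatin, combination and AU15330, and only the first step passed the test. For Cd276 the order was AU15330, combination, cisplatin and DMSO, with the last step not called. For Cd47 it was DMSO, cisplatin, combination and AU15330, with the first step not called. For Pvr and Icam1 the group with AU15330 alone was lowest and differed from the next, and DMSO and the combination were neighbours that did not differ. For Vcam1 the lowest groups, AU15330 and DMSO, did not differ, and both further steps were called. For Raet1d the step from AU15330 to cisplatin was the one not called, for Ulbp1 all 3 steps were called, and for Nectin2 and Raet1e none was.

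Genes with related roles were listed to place the 10 in context. Of the 6 other NKG2D ligand genes considered, none could be tested. Raet1a, Raet1b and Raet1c had 0 counts in all 24 libraries and have no transcript in the annotation used here, H60a was not in the table, H60b reached at most 4 and H60c at most 2 counts in a library. Summed over 6 libraries, H60b had 1 count with DMSO, 1 with AU15330, 11 with cisplatin and 11 with the combination. In the lists that follow, 7 of the tested genes (Vtcn1, Cadm2, Icam2, Madcam1, Cdh1, Fas and Tnfsf10) were under the filter's minimum in every library of at least 1 group. They passed through groups where they were higher, so the counts are also given without them.

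Of 18 further costimulatory or checkpoint ligand genes, 8 were tested. With cisplatin 4 rose and 2 fell, and with AU15330 1 rose and 5 fell (median log2 fold change -1.61), where 51.7% and 73.4% of all genes were called. With AU15330 added to cisplatin, 2 rose and 5 fell (median -2.004), beside 68.1% of all genes. Without Vtcn1, which had 0 counts in the AU15330 libraries, 4 fell with AU15330 (median -1.38) and 4 when it was added to cisplatin (median -1.66). The rise of Ceacam1 with cisplatin, 1 of the 4, was a call lost without replicate 3, 4, 5 or 6 (edgeR adjusted p 0.0542 to 0.158, 0.0343 with all). Lgals9, which encodes galectin-9, was at 99.0 ± 14.4 CPM with DMSO, 416 ± 45.6 with cisplatin, 38.0 ± 8.06 with AU15330 and 81.7 ± 14.5 with the combination (SD, n = 6). It thus rose 4.20-fold with cisplatin (edgeR adjusted p = 7.22e-13) and was 5.09-fold lower with the combination than with cisplatin (edgeR adjusted p = 1.25e-14). Lgals3, for galectin-3, fell 27.5-fold with AU15330 against DMSO and 3.16-fold with the combination against cisplatin (edgeR adjusted p = 1.82e-14 and 7.92e-07). Ceacam1, for an inhibitory adhesion molecule, fell 24.4-fold and 10.02-fold in the same comparisons (edgeR adjusted p = 5.44e-14 and 1.84e-12).

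Among 7 other nectin and nectin-like genes, 5 were tested. With cisplatin 4 rose and 1 fell (51.7% of all genes called), and with AU15330 2 rose and 2 fell (73.4%). Without Cadm2 these were 3 and 1, and 1 and 2. Nectin1 rose 3.18-fold with cisplatin, from 17.6 ± 4.01 to 56.0 ± 8.36 CPM (edgeR adjusted p = 5.12e-11), and was at 61.4 ± 9.18 CPM with the combination. Cadm2, a synaptic adhesion molecule, was at 0.209 ± 0.148 CPM with DMSO (0 to 9 reads per library) and at 8.56 ± 2.18 CPM with AU15330 (123 to 249 reads). It reached the filter's minimum in 0 DMSO and 3 cisplatin libraries and thus passed through the groups with AU15330, and the fit with no filter called the difference (edgeR adjusted p = 4.92e-16). Its call with cisplatin, 1 of the 4 that rose, was lost in that fit (edgeR adjusted p = 0.0438 with the filter and 0.0584 without). Cadm4 fell 5.85-fold with AU15330 (edgeR adjusted p = 1.39e-12).

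Of 11 other leukocyte adhesion genes, 7 were tested. With cisplatin 3 rose and 2 fell (51.7% of all genes called), with AU15330 4 rose and 3 fell (73.4%), and with AU15330 added to cisplatin 2 rose and 2 fell (68.1%). Without Icam2 and Madcam1 these were 1 and 2, 2 and 3, and 1 and 2. Icam5, a relative of Icam1 known from neurons, moved opposite to it with AU15330 and rose 45.1-fold, from 3.04 ± 0.357 to 137 ± 14.4 CPM (edgeR adjusted p = 2.19e-21). With the combination Icam5 was at 65.6 ± 8.59 CPM, 17.8-fold above cisplatin (edgeR adjusted p = 3e-19). F11r, for the junction protein JAM-A, fell 4.12-fold with AU15330 (edgeR adjusted p = 9.52e-18). Alcam fell 2.13-fold with cisplatin and 2.11-fold with AU15330 (edgeR adjusted p = 1e-08 and 2.93e-09).

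Of 8 other genes for ligands of NK receptors, 5 were tested, and 4 rose and 0 fell with cisplatin (26.0% and 25.7% of all genes). With AU15330 against DMSO 3 rose and 2 fell (73.4% of all genes called), and with AU15330 added to cisplatin 1 rose and 3 fell (68.1%). Without Cdh1 these were 3 and 0, 3 and 1, and 1 and 2. The fall of Clec2d with AU15330 against DMSO was a call lost without replicate 4 (-0.43, edgeR adjusted p = 0.0677). Clec2d, whose product binds an inhibitory receptor of the NKR-P1 family, rose from 3.195 ± 1.23 to 9.67 ± 1.22 CPM with cisplatin (edgeR adjusted p = 4.06e-08) and was at 1.83 ± 0.181 CPM with the combination. H2-T23 encodes Qa-1, the ligand of NKG2A. It rose 1.67-fold with cisplatin and 1.80-fold with AU15330 (edgeR adjusted p = 2.4e-07 and 6.61e-09), and the combination was 1.40-fold below cisplatin (edgeR adjusted p = 4.37e-05). Cdh2, for N-cadherin, a ligand of KLRG1, rose 1.77-fold and 2.00-fold with the single drugs (edgeR adjusted p = 9.85e-09 and 5.5e-11).

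Of 6 death receptor and ligand genes, 5 were tested. With cisplatin 3 rose and 1 fell (51.7% of all genes called), and with AU15330 2 rose and 2 fell (73.4%). Without Fas and Tnfsf10 these were 1 and 1, and 1 and 2. Tnfsf10, which encodes the death ligand TRAIL, had 248 reads over the 6 cisplatin libraries and only 3 with DMSO, 3 with AU15330 and 5 with the combination. It reached the filter's minimum in 6 cisplatin libraries and 0 others and so passed through cisplatin alone. It is 1 of the 3 that rose with cisplatin, a call also made by the fit with no filter (edgeR adjusted p = 1.02e-09). Tnfrsf1b fell 6.55-fold with AU15330, from 151 ± 4.00 to 22.97 ± 2.15 CPM (edgeR adjusted p = 2.51e-19), and Tnfrsf1a fell 1.67-fold (edgeR adjusted p = 7.79e-12).

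All 8 listed genes for the maturation or shedding of surface ligands were tested. With cisplatin 1 rose and 4 fell (51.7% of all genes called), and with AU15330 1 rose and 4 fell (73.4%). Cmtm6, whose product protects PD-L1 from lysosomal degradation, fell 2.05-fold with AU15330, from 91.5 ± 7.43 to 44.7 ± 1.90 CPM (edgeR adjusted p = 1.88e-13), the treatment in which Cd274 was 6.70-fold higher. Adam10, a sheddase, fell 1.88-fold with AU15330 (edgeR adjusted p = 7.49e-11). Pdia6, for a disulfide isomerase, fell 1.69-fold with cisplatin and 1.63-fold with AU15330 (edgeR adjusted p = 3.6e-09 and 3.19e-09).

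**Figure D4:**
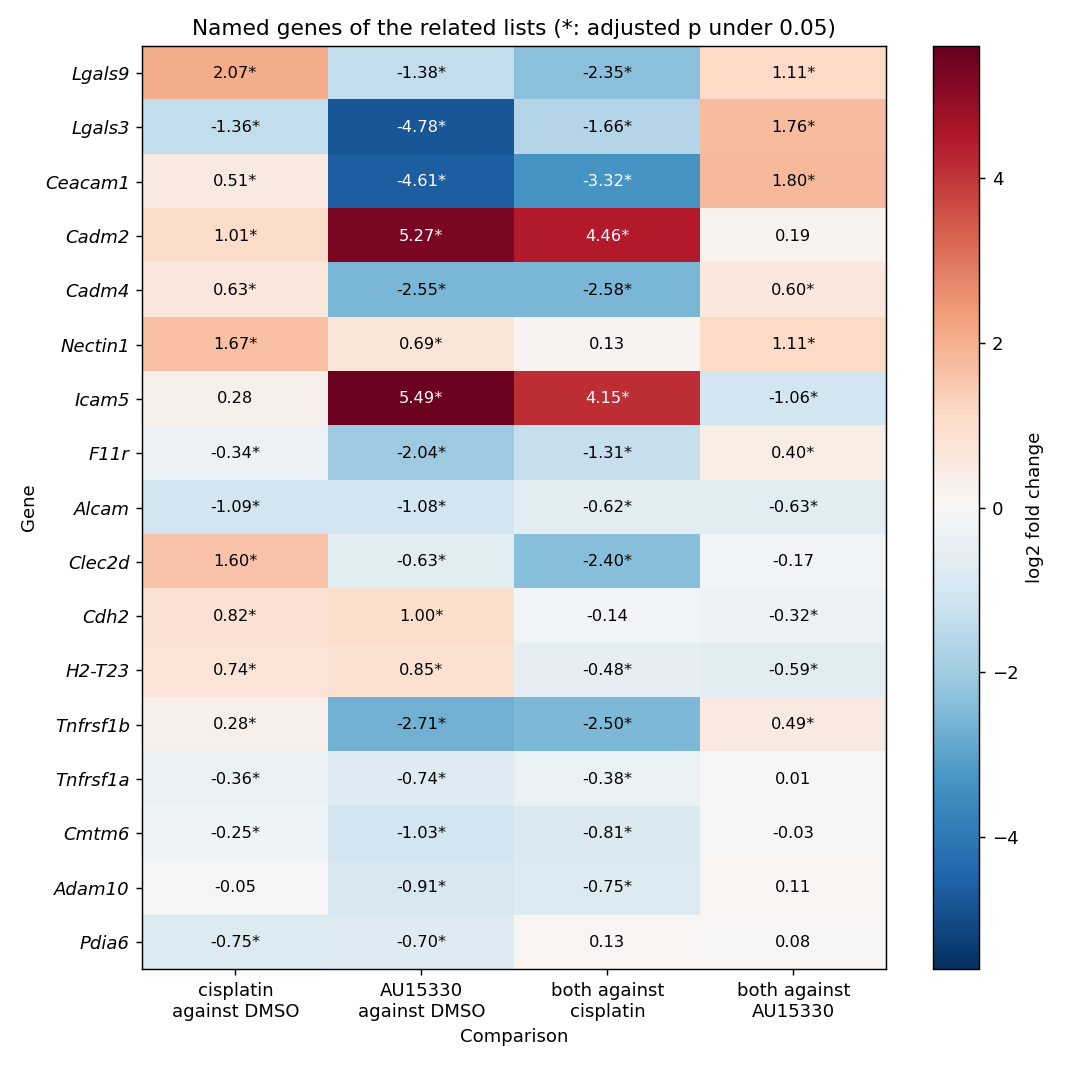
Log2 fold change (colour and number) of the named genes of the related lists (y axis) in 4 comparisons of 6 against 6 libraries (x axis), an asterisk marking an adjusted p under 0.05 in edgeR. Icam5 and Cadm2 had the highest values with AU15330 (5.49 and 5.27), Lgals3 and Ceacam1 fell most (-4.78 and -4.61), and Lgals9 and Clec2d rose with cisplatin and fell when AU15330 was added to it. Tnfsf10 is left out because 3 of its groups held 5 counts or fewer.

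Markers of other identities moved with the treatments too. The 7 epithelial markers summed to 3497 to 5245 CPM with DMSO and 3971 to 4673 CPM with cisplatin. They summed to 1017 to 1149 CPM with AU15330 and 1222 to 1401 CPM with the combination. Of the 6 tested, 4 rose and 0 fell with cisplatin, where 26.0% of all tested genes were higher and 25.7% lower. Without Krt7 these were 3 and 0. Krt8, 1 of the 4, went from 289 to 456 CPM with DMSO to 481 to 631 CPM. The fit with no filter called 2 of the 4 rises. All 6 that were tested fell with AU15330 against DMSO (median log2 fold change -2.29), where 73.4% of all tested genes were called (36.2% higher, 37.2% lower). Without Krt7, which passed the filter only through DMSO and cisplatin, 5 fell (median -2.16). Krt19 went from a median of 1611 to one of 5.72 CPM. The 3 endothelial markers summed to 2.87 to 4.23 CPM with DMSO, 8.51 to 12.8 with cisplatin, 0.261 to 0.763 with AU15330 and 0.439 to 1.15 with the combination, most of it Pecam1, with Cdh5 at no more than 3 counts in any library. Tek reached 9 counts in a cisplatin library and at most 6 in a library of the other groups. Tigit, whose product is a receptor for CD155, had a median of 1.37 CPM with DMSO and at most 0.0522 CPM with AU15330. Of the other leukocyte markers, Cd79a went the other way, from a median of 0.0513 CPM with DMSO to 0.337 with AU15330, 0.386 with cisplatin and 0.317 with the combination. The part of these shifts in the values of the ligand genes was not tested.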

How the data were processed

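RNA of 24 libraries (4 treatments, 6 replicates each) was analysed. Per the labels, RNA was extracted with a column kit, poly(A)-selected and made into directional libraries, and the study's methods give single-end reads of 70 bases. The authors aligned the reads with STAR 2.7.1a to mm10 and deposited raw counts per gene symbol. The counting tool, its strand setting and its treatment of reads shared between genes are not given in the sources used here. Their own notes also name DESeq2 1.36.0. All 48 columns matched a library by name (0 unmatched), and counts of its 2 lanes were added.

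The counts went into the quasi-likelihood F test of edgeR 4.0.16 (R 4.3.3) after filterByExpr and TMM scaling, with 1 mean per group and 20 residual degrees of freedom. P-values were adjusted by Benjamini and Hochberg over 12941 genes, with a threshold of 0.05, and every adjusted p in the text is edgeR's unless DESeq2 or a permutation test is named. CPM used TMM-adjusted totals. The standard error is the log2 fold change divided by the square root of F. The interaction is the effect of AU15330 with cisplatin minus that without. Exon lengths, positions and shared stretches came from GENCODE M21 (GRCm38), upstream sequences from RefSeq on GRCm38.p6, which held 8 of the 10 genes (Pvr and Vcam1 were not among them). The permutation test and intervals used SciPy 1.17.1. The pipeline was tested on simulated counts with known changes.

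The 10 genes and the related lists were chosen with earlier results of these data known. Of the related lists, the 3 called genes with the smallest p per list were named, and Tigit, Krt19, Pecam1 and other markers were named after their values were seen. The comparison of AU15330 with cisplatin, the GGAANTTCC motif and the sum of Raet1d and Raet1e were added after the data were seen. Alternatives were DESeq2 1.42.0, other scalings, no filter, a required fold change of 1.5, a replicate block, fits of 2 groups and leaving out each replicate number.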

Additional observations from a re-analysis of the deposited data

Results flagged for a closer look

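In groups of 6 libraries, 4 of 112 groups of the named genes had 1 library far from the rest by Dixon's ratio of its gap to the range, where chance gives about 5.6. These were Pvr in DMSO replicate 1 (ratio 0.701, 47.6 CPM against 64.3 to 71.4), Raet1e in AU15330 replicate 1 (0.847, 3.78 against 2.28 to 2.51), Lgals9 in DMSO replicate 1 (0.842, 128 against 90.5 to 96.4) and Tnfsf10 in DMSO replicate 6 (1.0, 0.140 CPM against 0). In 3 of the 4 the library was a replicate 1.

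The effect of AU15330 differed with and without cisplatin, by edgeR's interaction test, for 19 of the 28 named genes, where 33.7% of all tested genes were called. The 18 related genes among them were chosen for their small p, which raises that count. Among the 10 ligand genes the differences on the log2 scale were -2.60 for Cd274, 0.69 for Cd276, -0.40 for Cd47, 0.75 for Pvr, -1.80 for Vcam1 and -0.97 for Ulbp1. Cd274, Cd47 and Ulbp1 rose less with AU15330 when cisplatin was present. Cd276 fell less, and Vcam1 fell with AU15330 in the presence of cisplatin. Among the related genes they were -0.97 for Lgals9, 3.12 for Lgals3, 1.28 for Ceacam1, -0.56 for Nectin1, -1.34 for Icam5, 0.73 for F11r, 0.46 for Alcam, -1.77 for Clec2d, -1.14 for Cdh2, -1.33 for H2-T23, 0.36 for Tnfrsf1a, -5.23 for Tnfsf10 and 0.83 for Pdia6. The value of Tnfsf10 rests on groups of 3 to 5 counts and depends on the prior count. The gene passed the filter on low counts through cisplatin alone, and the fit with no filter called the interaction too (edgeR adjusted p = 0.0185). The call was lost without replicate 2 (-4.52, edgeR adjusted p = 0.196) or replicate 4 (-4.74, adjusted p = 0.0906). The call of Alcam was lost without replicate 1, 2, 4 or 6 (edgeR adjusted p 0.0516 to 0.0984) and that of Nectin1 without replicate 5 (-0.49, edgeR adjusted p = 0.0728).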

How the results depend on the processing

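The number of the 10 genes called stayed within 1.5 times its value in every comparison under the alternatives tried, except when a fold change above 1.5 was required. Then 4 in place of 7 were called for the combination against AU15330 and 2 in place of 6 for the interaction. Leaving out each replicate number gave 5 to 6 called genes for cisplatin against DMSO, 7 to 8 for AU15330 against DMSO, 5 to 6 for the combination against cisplatin, 7 to 7 against AU15330 and 6 to 7 against DMSO, and 5 to 7 for the interaction. Of all tested genes, these fits called 5824 to 6826 for cisplatin and 8983 to 9685 for AU15330 against DMSO. For the combination they called 8213 to 8958 against cisplatin, 4501 to 5623 against AU15330 and 8945 to 9643 against DMSO, and 3265 to 4627 for the interaction. Same-numbered libraries correlated with a mean r of 0.145 (23 of 36 pairs over 0.1, lowest -0.133), libraries of different numbers with a mean r of -0.027 (35 of 180 over 0.1), and 10 of 24 libraries correlated best with their own number. All 6 pairs of replicate 1 (r 0.217 to 0.483) and all 6 pairs of AU15330 with the combination (0.101 to 0.483) were over 0.1, and in the other 5 pairs of groups 2 to 5 of 6 were. The labels name no shared batch, and since not every pair passed, the reported fit has no block, although same numbers deviated together more often than different ones. A fit with the replicate number as a block called 6 genes for cisplatin against DMSO, 8 for AU15330 against DMSO and 7 for the interaction. Of all 12941 tested genes it called 7354, 9966 and 5303 in these comparisons, where the reported fit called 6689, 9497 and 4361. The blocked fit added Cd276 (-0.25, adjusted p = 0.023), Nectin2 (-0.26, adjusted p = 0.0136) and Icam1 (-0.38, adjusted p = 0.0145). It changed no other call among the 10, the combination against AU15330 included.

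Values that changed sign were all uncalled in the reported fit. Scaling to total counts moved the median of all genes by over 0.1, to 0.126 for AU15330 against DMSO and 0.139 for the combination against DMSO. It turned Vcam1 (0.0571 for AU15330 against DMSO), Pvr (0.1099), Nectin2 (0.0809) and Icam1 (0.0771, all for the combination against DMSO), Adam10 (0.0247 for cisplatin) and Tnfsf10 (0.0122 for AU15330). For AU15330 against DMSO it turned the split of all called genes from 4681 higher and 4816 lower to 5618 and 3973. It also changed the split from 3360 higher and 3329 lower to 3977 and 2529 for cisplatin against DMSO, and from 2313 and 2048 to 1791 and 2506 for the interaction. Requiring a fold change above 1.5 cut the called genes of all tested from 6689 to 1789 for cisplatin against DMSO (1422 higher, 367 lower), from 9497 to 4657 for AU15330 against DMSO, from 8813 to 3803 for the combination against cisplatin (1459 higher, 2344 lower), from 5394 to 842 against AU15330 (721 higher, 121 lower) and from 9486 to 4683 against DMSO, from 9456 to 4723 for AU15330 against cisplatin (1888 higher, 2835 lower) and from 4361 to 926 for the interaction (342 higher, 584 lower). For Tnfrsf1a in the combination against AU15330, DESeq2 size factors gave -0.0089, no filter -0.0309 and DESeq2's test -0.0089. For Alcam in AU15330 against cisplatin they gave -0.0035 and -0.0036 by size factors and DESeq2's test. The cause was not tested.

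Leaving out replicate numbers, cisplatin against DMSO ranged from -0.0114 to 0.1057 for Cd47, -0.0857 to 0.0955 for Raet1e and -0.1218 to 0.0094 for Adam10. AU15330 against DMSO ranged from -0.1444 to 0.0151 for Vcam1, -0.0401 to 0.1799 for Raet1e and -1.2489 to 2.5165 for Tnfsf10. The combination against cisplatin ranged from -0.1038 to 0.098 for Raet1e and -0.0036 to 0.2094 for Nectin1. Against AU15330 it ranged from -0.1272 to 0.035 for Raet1e, -0.0228 to 0.0082 for Tnfrsf1a and -0.1104 to 0.0073 for Cmtm6. Against DMSO it ranged from -0.1753 to 0.0104 for Pvr, -0.0142 to 0.1628 for Raet1e and -0.1022 to 3.152 for Tnfsf10. AU15330 against cisplatin ranged from -0.0155 to 0.134 for Raet1e and -0.0167 to 0.033 for Alcam, and the interaction from -0.0474 to 0.1107 for Nectin2, -0.2227 to 0.1207 for Raet1e and -0.2604 to 0.2607 for Cadm4.

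Of 897 refitted values of the 10 genes, 849 kept direction and side of the threshold, 18 changed sign, 13 became called and 17 lost their call. For Raet1d, and for Ulbp1 with DMSO, the number of reads limits the precision.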
